A study of Ambystoma mexicanum with 12 samples.

Results

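The Notch pathway genes described here are 10 human gene symbols in the expression table of axolotl (Ambystoma mexicanum) spinal cord: the receptors NOTCH1, NOTCH2 and NOTCH3, the ligands DLL1, JAG1 and JAG2, the ligand-activating enzyme MIB1, the nuclear effector RBPJ, and the target genes HES1 and HEY1. They were chosen by name, with earlier results of these data known, and all 10 were among the 15091 symbols of the table. RNA was sequenced from 4 groups of 3 libraries: uninjured cords, cords at 4 days post injury (dpi) with a control inhibitor, uninjured cords with an inhibitor of miR-200a, and cords at 4 dpi with the miR-200a inhibitor. The labels write the inhibitor as miR-200, and the study's methods as miR-200a. They place the inhibitors, given by pressure injection, in the central canal just before part of the cord was taken out. The study's methods add electroporation on the injury day, with a repeat 2 days later. Whether the uninjured cords were injected with anything, and how long after injection the uninjured inhibitor cords were collected, is not given in the sources used here. The titles of the numbered uninjured libraries hold the tag Cntl, as do those of the 4 dpi control libraries. The title of the remaining uninjured library holds no number and no such tag. Whether the uninjured libraries differ in treatment is not given. All animals were of the white strain. Per the labels the axolotls were 2 to 3 cm long and each library pooled tissue of 10 animals, so a library is a pool and not an animal, while the study's methods give longer animals and fewer cords per pool. That pools were separate sets of animals rests on the methods' description of biological triplicates, which does not cover the uninjured inhibitor group. At 4 dpi, per the study's methods, only short stretches rostral and caudal to the lesion were dissected. Which stretch of the uninjured cords was taken is not given. All libraries are bulk cord tissue, in which fewer cells of a type and less RNA per cell cannot be told apart.

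Notch receptors sit in the cell membrane and are switched on by Delta and Jagged ligands on a neighbouring cell. Pulling by the ligand, which needs ubiquitin transfer by MIB1 inside the ligand-bearing cell, exposes the receptor to ADAM proteases and then to gamma-secretase. The freed intracellular domain enters the nucleus, joins RBPJ and a Mastermind coactivator on DNA, and turns on repressors of the HES and HEY families. In the vertebrate neural tube these repressors hold back proneural genes and keep radial glia and other progenitors from becoming neurons. In axolotl cord the cells lining the central canal, here called ependymoglia, are the glial progenitors that rebuild the cord after injury.

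Levels are in TPM, the usual relative abundance of transcripts, which are corrected for transcript length and sum to 1000000 in each library. Each symbol stands for the best human match of assembled axolotl transcripts, so axolotl paralogs with the same best human match share a row. The human gene entries behind the symbols were ENSG00000148400 for NOTCH1, ENSG00000134250 for NOTCH2, ENSG00000074181 for NOTCH3, ENSG00000198719 for DLL1, ENSG00000101384 for JAG1, ENSG00000184916 for JAG2, ENSG00000114315 for HES1, ENSG00000164683 for HEY1, ENSG00000168214 for RBPJ and ENSG00000101752 for MIB1. The JAG2 and HEY1 rows each joined 2 human transcripts, and each of the other rows held 1. An axolotl gene table from RefSeq (UKY_AmexF1_1) listed 8 of the 10 symbols, all except NOTCH2 and NOTCH3.

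The libraries differed in ways that moved most genes at once. Ribosomal protein genes took 6.21% to 8.89% of TPM in uninjured cords and 7.38% to 11.04% in 4 dpi control cords, but 15.1% to 17.7% in uninjured inhibitor cords and 13.5% to 16.4% in 4 dpi inhibitor cords. TPM divides a fixed sum, and the median gene stood at 8.66 to 17.0 TPM in the 6 libraries without the inhibitor and at 4.55 to 7.09 TPM in the 6 with it. The results are therefore also given after median-of-ratios scaling, in which each library is divided by the factor that brings its typical gene to a common level. The 2 libraries numbered 1 (uninjured and 4 dpi control) had the smallest share of TPM in their 50 most abundant genes, 17.3% and 19.5%, against 22.3% to 32.9% in the other 10 libraries. Uninjured replicate 1 held the highest TPM of all 12 libraries for 7 of the 9 genes that were tested.

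Of the receptors, NOTCH2 varied most. Values are given for each group in the order of replicate number, and the second uninjured library, whose label has no number, stands between replicates 1 and 5. NOTCH2 was at 65.7, 10.2 and 18.8 TPM in uninjured cords, 46.0, 8.98 and 11.1 TPM in 4 dpi control cords, 2.68, 6.65 and 0.926 TPM in uninjured inhibitor cords, and 10.4, 9.27 and 8.04 TPM in 4 dpi inhibitor cords. The libraries numbered 1 were several times above the rest of their groups, all 3 uninjured inhibitor libraries were below every other library, and the other 7 libraries lay between 8.04 and 18.8 TPM. The highest NOTCH2 library held 70.9 times the TPM of the lowest, and 26.0 times after scaling.

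NOTCH1, the main receptor of vertebrate neural progenitors, was at 26.3, 13.3 and 8.12 TPM in uninjured cords and at 13.8, 6.86 and 9.30 TPM in 4 dpi control cords. With the inhibitor it was at 3.95, 5.37 and 4.80 TPM in uninjured cords and at 6.26, 6.57 and 5.15 TPM at 4 dpi. All 6 libraries without the inhibitor were above all 6 with it, and the groups within each of those 6 overlapped. After scaling they were not separate, with 4 dpi control cords from 6.34 and 4 dpi inhibitor cords up to 7.79. On TPM as deposited, 49.00% of all genes were lower without overlap with the inhibitor at 4 dpi, and 50.8% in uninjured cords. The share of genes that separated all 6 from all 6 was not counted. NOTCH3, in mammals a receptor of vessel-wall and progenitor cells, was listed at 0 in 8 of 12 libraries. It was at 2.56 TPM in uninjured replicate 1, at 1.73 and 1.71 TPM in 4 dpi control replicates 1 and 6, and at 2.71 TPM in 4 dpi inhibitor replicate 7. Its mean was under the 1 TPM required for the test, so it was described and not tested, which leaves 9 of the 10 genes for every count that follows.

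Among the ligands, JAG2 was at 13.4, 14.2 and 8.98 TPM in uninjured cords, at 12.1, 6.53 and 9.54 TPM in 4 dpi control cords, at 4.10, 6.04 and 3.14 TPM in uninjured inhibitor cords and at 5.21, 5.64 and 5.40 TPM in 4 dpi inhibitor cords. JAG1 was at 15.2, 5.54 and 5.80 TPM, then 7.76, 4.25 and 5.43 TPM, then 2.45, 3.55 and 2.48 TPM, then 4.34, 4.32 and 4.69 TPM in the same order of groups. By group mean both Jagged ligands were lowest in the uninjured inhibitor cords, where all 3 JAG1 libraries were below all others. DLL1, the Delta ligand that nascent neurons present to neighbouring progenitors in the vertebrate neural tube, was the least abundant of the tested genes. It was at 8.09, 3.97 and 2.71 TPM in uninjured cords, 3.54, 1.64 and 2.60 TPM in 4 dpi control cords, 1.28, 1.87 and 1.099 TPM in uninjured inhibitor cords, and 1.99, 1.22 and 0.966 TPM in 4 dpi inhibitor cords. Every uninjured DLL1 library was above every inhibitor library, while the 4 dpi control libraries overlapped all the other groups.

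MIB1, the E3 ubiquitin ligase that marks Delta and Jagged for the endocytosis that activates signaling, was at 17.0, 8.93 and 11.3 TPM in uninjured cords and 13.1, 7.70 and 8.50 TPM in 4 dpi control cords. It was at 4.00, 5.10 and 4.32 TPM and at 5.56, 5.60 and 3.85 TPM in the uninjured and 4 dpi inhibitor cords. As for NOTCH1, the 6 libraries without the inhibitor were all above the 6 with it. For MIB1 this held narrowly after scaling, with 4 dpi control cords from 7.02 and 4 dpi inhibitor cords up to 6.93.

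RBPJ, the DNA-binding protein through which all Notch receptors act, differed from these genes. It was at 43.7, 22.9 and 35.5 TPM in uninjured cords, 41.0, 44.6 and 43.5 TPM in 4 dpi control cords, 25.3, 32.0 and 24.3 TPM in uninjured inhibitor cords, and 42.7, 41.1 and 41.5 TPM in 4 dpi inhibitor cords. On TPM as deposited, the 6 libraries taken at 4 dpi lay within a narrow range with or without the inhibitor. The lowest values were then in uninjured cords of both kinds. This did not hold after scaling, where RBPJ was at 24.6 to 41.2 in 4 dpi control cords and 44.1 to 53.6 in 4 dpi inhibitor cords. Scaled values were 20.7 to 29.2 in uninjured cords and 37.4 to 41.3 in uninjured inhibitor cords. The highest RBPJ library held 1.94 times the TPM of the lowest, and 2.59 times after scaling.

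The targets were HES1 and HEY1, basic helix-loop-helix repressors. HES1 was at 29.0, 22.4 and 14.8 TPM in uninjured cords, 19.5, 9.61 and 16.2 TPM in 4 dpi control cords, 9.68, 8.62 and 10.7 TPM in uninjured inhibitor cords, and 9.52, 11.4 and 10.0 TPM in 4 dpi inhibitor cords. HEY1 was at 43.4, 13.1 and 23.5 TPM, then 20.3, 15.0 and 21.7 TPM, then 9.62, 12.8 and 12.1 TPM, then 9.38, 8.20 and 8.65 TPM in the same order. For HES1 the uninjured libraries were above both inhibitor groups, and the lowest 4 dpi control library lay among the inhibitor libraries. For HEY1 the 4 dpi inhibitor libraries were below all the others. The share of all genes with a separation such as those of NOTCH2, JAG1, MIB1 and HEY1 from all remaining libraries was not counted.

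**Figure D1:**
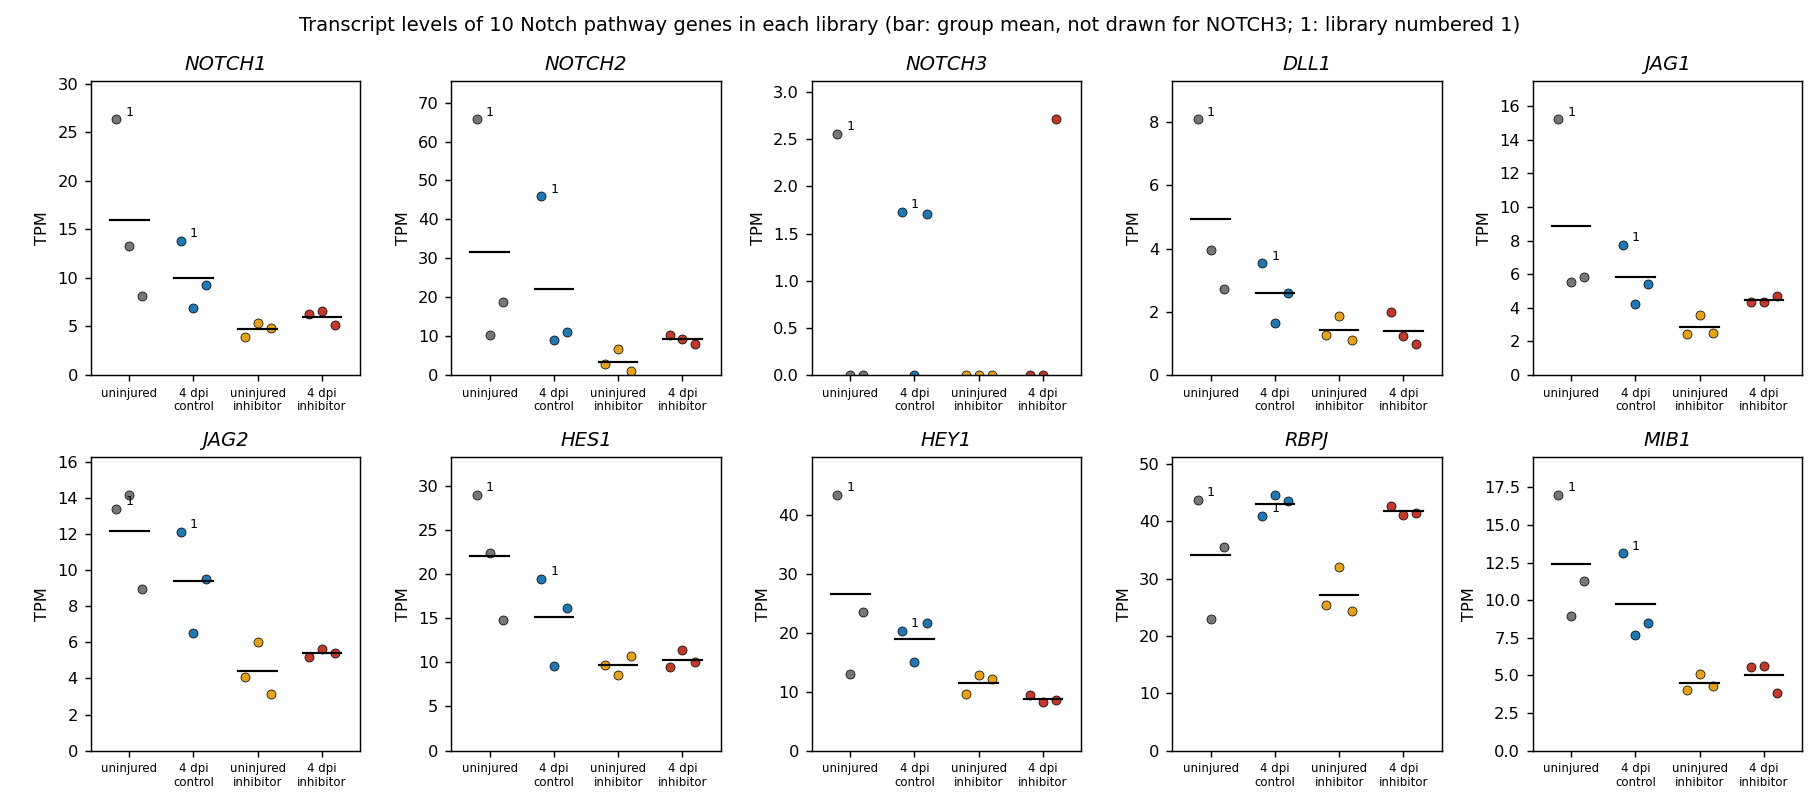
TPM (linear axis from 0) of the 10 genes in each of the 12 libraries, 3 points per group, with the group mean as a bar (not drawn for NOTCH3, which is listed at 0 in 8 libraries) and the libraries numbered 1 marked. On this scale, before median-of-ratios scaling, NOTCH1 and MIB1 separate the 6 libraries without the inhibitor from the 6 with it. After that scaling NOTCH1 does not. NOTCH2 is at 0.926 to 6.65 TPM in uninjured inhibitor cords and 8.04 TPM or more elsewhere. RBPJ is at 41.0 to 44.6 TPM in all 6 libraries at 4 dpi, which after scaling spread from 24.6 to 53.6.

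The first comparison set 4 dpi control cords against uninjured cords. If the uninjured cords were not injected, it holds injury together with the injected and electroporated control inhibitor. Whether they were is not given. No change was called for any of the 9 genes by limma at an adjusted p under 0.05, while 0.904% of all 13824 genes tested were called. None of the 9 had an unadjusted p under 0.05, beside 1410 of all genes. The log2 differences were negative for 8 genes, from -0.82 for DLL1 (95% interval -1.93 to 0.29, adjusted p = 0.625) to -0.33 for HEY1 and MIB1, and positive for RBPJ at 0.39 (-0.15 to 0.92, adjusted p = 0.629). The median over all genes was -0.08. The libraries of the groups overlapped for each of the 9 genes, whereas they did not overlap for 9.73% of all genes. After scaling, DLL1, JAG1 and MIB1 were lower at 4 dpi without overlap, as were 6.004% of all genes. The interval of NOTCH2, from -2.19 to 1.22, was the widest, and differences within it were not detectable with these libraries.

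After injury, the inhibitor was compared with the control inhibitor at 4 dpi. All 9 differences were negative, but so was the median of all genes at -0.69, and 0 of the 9 genes were called by limma against 3.82% of all genes. That share depended on the fit. With single libraries left out, no gene at all was called in 6 of 12 fits, 1 gene in 2 fits, and as many as 2792 genes without uninjured replicate 1. After median-of-ratios scaling limma called 0 of all 13824 genes (0%), with 2559 at an unadjusted p under 0.05, and it also called 0 after quantile normalization (2510 unadjusted) or without a variance trend (4566 unadjusted). Without adjustment, p on TPM as deposited was under 0.05 for 3 of the 9 genes, beside 4729 of all 13824. These were HEY1 at -1.10 (SE 0.37, adjusted p = 0.0763), MIB1 at -0.93 (SE 0.33, adjusted p = 0.0869) and JAG2 at -0.74 (SE 0.34, adjusted p = 0.145). The values of HEY1, MIB1, JAG2 and NOTCH1 did not overlap between the groups, all lower with the inhibitor, as was the case for 49.00% of all genes. After scaling HEY1 was at -0.46, MIB1 at -0.30 and JAG2 at -0.11 (adjusted p = 0.428, 0.508 and 0.881). On that scale HEY1 and MIB1 were lower without overlap, as were 16.99% of all genes, and RBPJ higher, as were 18.5%. Without uninjured replicate 1, which enters this comparison only through the shared estimate of the spread, HEY1 (adjusted p = 0.0273) and MIB1 (0.0458) were called, and without the unnumbered uninjured library HEY1 was called (0.0372). RBPJ was at -0.04 (95% interval -0.57 to 0.49).

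In cords that were not injured, the inhibitor was compared with uninjured cords, and this was the comparison with the most calls. It holds the injection as well if the reference cords were not injected. The levels of 8 of the 9 genes fell, all except RBPJ, in a comparison in which limma called 51.1% of all genes lower and the median gene stood at -1.10. NOTCH2 fell by 3.13 on the log2 scale (SE 0.79, adjusted p = 0.00669) and lay at the 6.68th percentile of all genes, counted from the most negative. The receptor NOTCH1 fell by 1.58 (SE 0.41, adjusted p = 0.00747) and the ligands DLL1, JAG1 and JAG2 by 1.62, 1.47 and 1.46 (adjusted p = 0.0186, 0.0110 and 0.00483). MIB1 fell by 1.41 (adjusted p = 0.00523), and the targets HES1 and HEY1 fell by 1.13 and 1.05 (adjusted p = 0.0112 and 0.0282), close to the median gene. RBPJ was at -0.28 (95% interval -0.82 to 0.25, adjusted p = 0.326). The libraries of these 8 genes did not overlap between the groups, as for 50.8% of all genes. After scaling, NOTCH2, JAG1 and MIB1 were lower without overlap (20.4% of all genes) and RBPJ was higher (22.5%).

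These calls in uninjured cords depended on the scaling. After median-of-ratios scaling, which brings the median gene to -0.17, limma called NOTCH2 lower (-2.20, SE 0.65, adjusted p = 0.0220) and RBPJ higher (0.66, SE 0.23, adjusted p = 0.0427), with 17.8% of all genes lower and 19.4% higher. The other 7 genes were then at -0.71 for DLL1 to -0.11 for HEY1 and were not called. Before scaling, the HEY1 call was lost without uninjured replicate 1, uninjured replicate 5, uninjured inhibitor replicate 5 or uninjured inhibitor replicate 7 (adjusted p = 0.114, 0.0547, 0.0944 and 0.0574). The DLL1 call was lost without uninjured replicate 1, uninjured inhibitor replicate 5 or uninjured inhibitor replicate 7 (0.0701, 0.0572 and 0.0623), and RBPJ was called lower at -0.54 without the unnumbered uninjured library (0.0345). After scaling, the NOTCH2 call held in 9 of 12 fits that each left out 1 library. It was lost without uninjured replicate 1 (-1.66, adjusted p = 0.0832), uninjured inhibitor replicate 5 (-2.27, 0.0568) or uninjured inhibitor replicate 7 (-1.53, 0.0908). The scaled RBPJ call held in 3 of 12 fits, those that left out uninjured replicate 5, 4 dpi control replicate 1 or 4 dpi control replicate 5, with adjusted p up to 0.101 in the other fits. Its value stayed between 0.53 and 0.78 throughout.

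**Figure D2:**
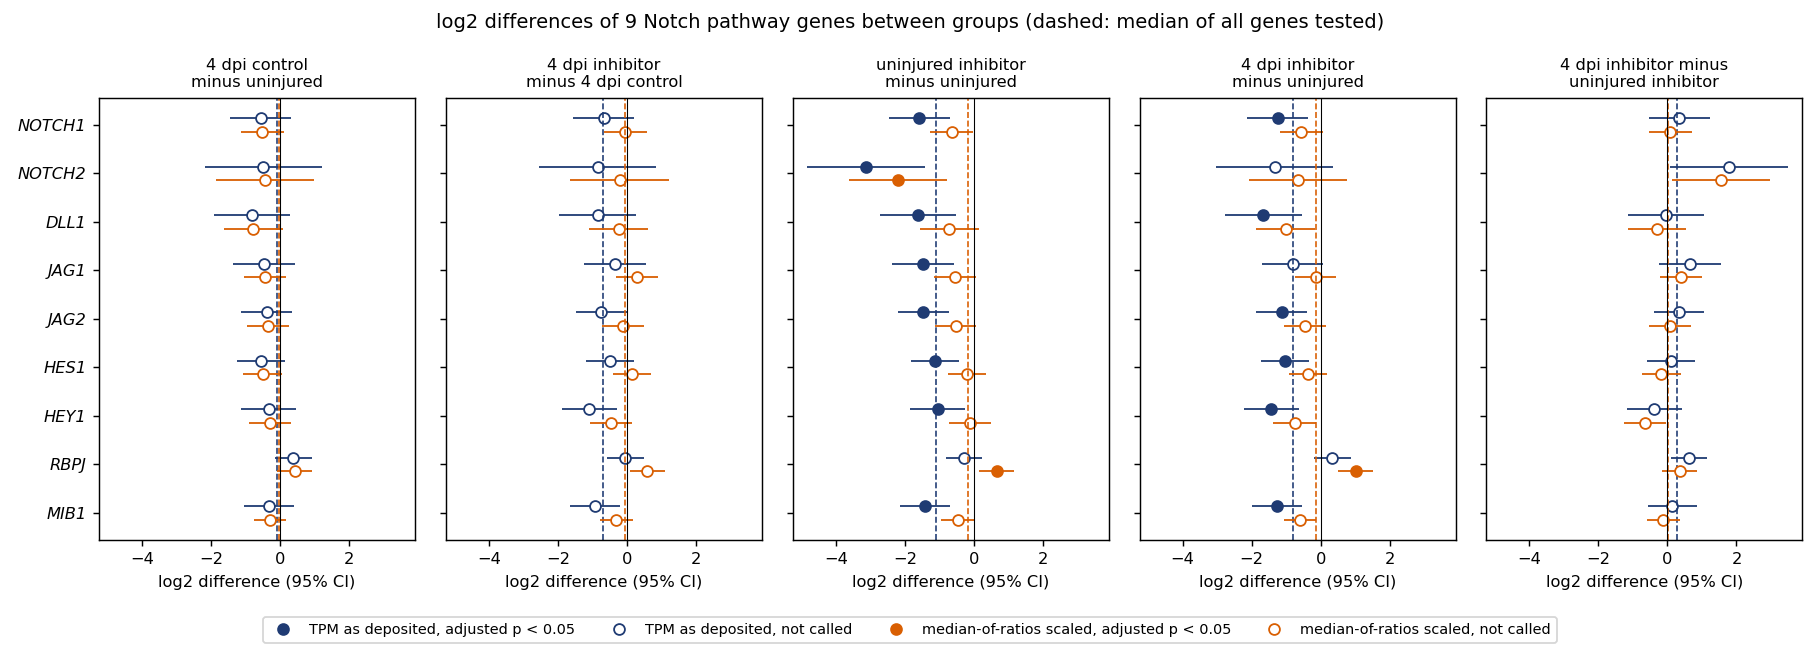
log2 differences (points) with 95% confidence intervals (bars) of the 9 tested genes in the 5 comparisons, on TPM as deposited (blue) and after median-of-ratios scaling (orange), filled where the adjusted p was under 0.05 in limma over 12 libraries, with dashed lines at the median of all genes tested. In uninjured inhibitor against uninjured cords, 8 blue points are filled, against 2 orange points (NOTCH2 at -2.20 and RBPJ at 0.66).

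Injured cords with the inhibitor were also compared with the same uninjured libraries. This comparison therefore shares its reference, and the open question of its injection, with the previous one and with the first. The levels of 6 of the 9 genes fell: HEY1 by 1.43, MIB1 by 1.26, HES1 by 1.04, JAG2 by 1.13, DLL1 by 1.66 and NOTCH1 by 1.24 on the log2 scale, with adjusted p in limma of 0.0114, 0.0127, 0.0230, 0.0211, 0.0232 and 0.0306. Of all genes 31.2% were called lower, and the median gene was at -0.81. JAG1 (-0.81, adjusted p = 0.126), NOTCH2 (-1.33, adjusted p = 0.1797) and RBPJ (0.34, adjusted p = 0.264) were not called. The libraries of 7 genes, these 6 and JAG1, did not overlap and were lower with injury and the inhibitor, against 41.8% of all genes. After scaling, JAG2, HEY1 and MIB1 were lower without overlap (21.96% of all genes) and RBPJ was higher (23.8%).

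Scaling moved this comparison as well. With the median gene at -0.14, RBPJ was the gene called, higher by 1.02 (SE 0.23, adjusted p = 0.00856), where 16.6% of all genes were called higher. It was called in each of the 12 fits that left out 1 library, at 0.89 to 1.14 with adjusted p of 0.00275 to 0.0402. MIB1 at -0.59 (adjusted p = 0.0581), HEY1 at -0.76 (0.0630) and DLL1 at -1.01 (0.0719) were not called after scaling. On TPM as deposited, leaving out single libraries changed the number of calls from 6 to as few as 1. It was 2 without uninjured replicate 1 (HEY1 and MIB1), 3 without 4 dpi inhibitor replicate 5 (HEY1, MIB1 and DLL1), 4 without 4 dpi inhibitor replicate 6 (without NOTCH1 at 0.0547 and DLL1 at 0.0582), and 1 without 4 dpi inhibitor replicate 7 (HEY1). HEY1 was called in all 12 fits, at -1.86 to -0.996.

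Within the inhibitor cords, injured were compared with uninjured. None of the 9 genes was called by limma, where 0.622% of all 13824 genes were, and the median gene was at 0.28. An unadjusted p under 0.05 was found for 2 of the 9 genes, beside 2871 of all genes. Those 2 were NOTCH2 at 1.79 (SE 0.79, 95% interval 0.09 to 3.50, adjusted p = 0.222) and RBPJ at 0.63 (SE 0.25, 0.09 to 1.16, adjusted p = 0.185). NOTCH2, JAG1 and RBPJ were higher after injury in every library, as were 29.6% of all genes, and HEY1 was lower in every library, as were 9.51%. These 4 genes also did not overlap after scaling, beside 18.3% of all genes higher and 17.8% lower, and HEY1 was at -0.65 (95% interval -1.26 to -0.04, adjusted p = 0.203). The interaction asks whether injury moved a gene differently with the inhibitor than with the control. Injection of the control is part of it if the uninjured cords were not injected. The interaction was called by limma for 0 of the 9 genes and for 0.0434% of all genes. It had an unadjusted p under 0.05 for 0 of the 9 genes and for 1130 of all 13824. Its largest values were 2.28 for NOTCH2 (95% interval -0.14 to 4.69, adjusted p = 0.587) and 1.13 for JAG1 (-0.13 to 2.40, adjusted p = 0.587), and HEY1 was at -0.05 (-1.18 to 1.08).

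Ratios of these genes within a library do not depend on scaling. RBPJ over the geometric mean of the other 8 tested genes was 1.96, 2.27 and 3.62 in uninjured cords, 3.04, 6.88 and 4.86 in 4 dpi control cords, 6.54, 5.85 and 6.98 in uninjured inhibitor cords, and 7.25, 7.35 and 8.45 in 4 dpi inhibitor cords. The uninjured libraries were below both inhibitor groups, and the highest 4 dpi control library lay among the uninjured inhibitor ones. This ratio restates the differences given above. Against uninjured cords, the difference of RBPJ lay at percentile 73.7 of all genes in uninjured inhibitor cords and 82.2 in 4 dpi inhibitor cords. How many other genes would separate the groups in such a ratio was not counted. RBPJ over NOTCH1 was 1.66, 1.72 and 4.37 in uninjured cords, 2.96 to 6.497 in 4 dpi control cords, 5.06 to 6.41 in uninjured inhibitor cords and 6.25 to 8.05 in 4 dpi inhibitor cords, so the last 3 groups overlapped. NOTCH2 over NOTCH1 was 0.193 to 1.24 in uninjured inhibitor cords and 1.41 to 1.66 in 4 dpi inhibitor cords, and spread from 0.766 to 2.497 among uninjured cords and 1.19 to 3.32 among 4 dpi control cords, both of which overlapped the inhibitor groups. HEY1 over HES1 was 1.498, 0.583 and 1.58 in uninjured cords, 1.04 to 1.56 in 4 dpi control cords, 0.994 to 1.48 in uninjured inhibitor cords and 0.718 to 0.985 in 4 dpi inhibitor cords. The lowest HEY1 to HES1 ratio of all 12 libraries, 0.583, was that of the unnumbered uninjured library, so uninjured and 4 dpi inhibitor cords overlapped. The 4 dpi control and uninjured inhibitor libraries were above the 4 dpi inhibitor ones. For uninjured inhibitor cords the margin was narrow, 0.994 against 0.985. How many other pairs of genes separate these groups was not counted.

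**Figure D3:**
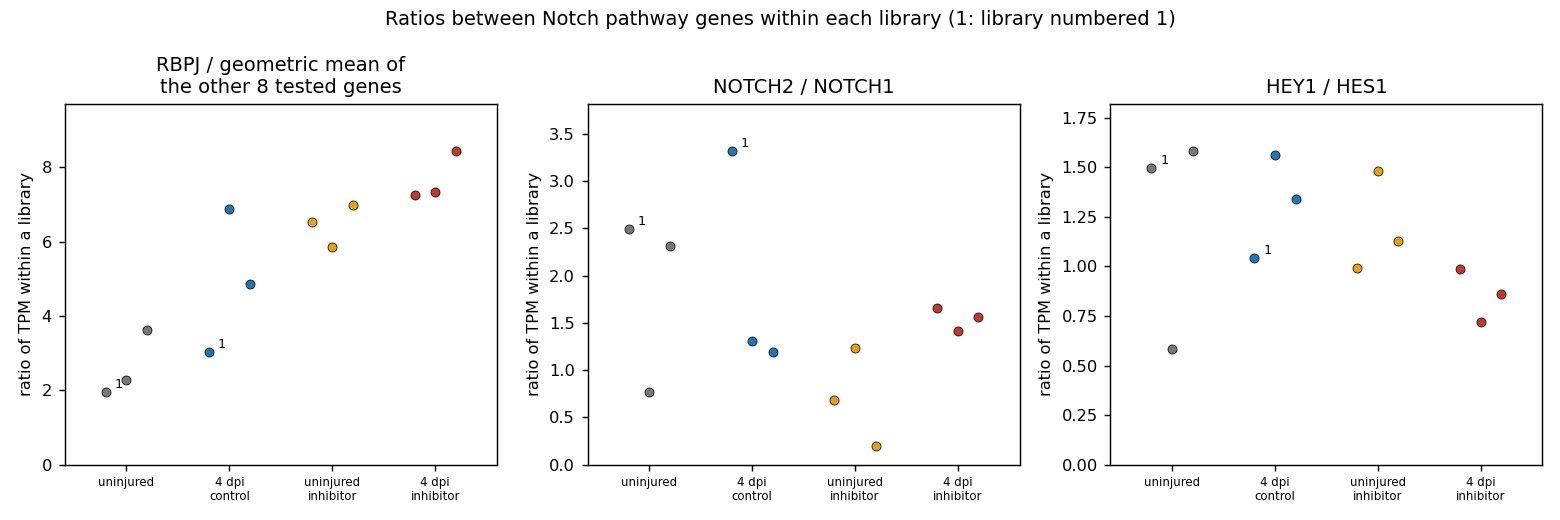
Ratios of TPM within each library (linear axes from 0), 3 points per group: RBPJ over the geometric mean of the other 8 tested genes, NOTCH2 over NOTCH1, and HEY1 over HES1. The RBPJ ratio is 1.96 to 3.62 in uninjured cords and 7.25 to 8.45 in 4 dpi inhibitor cords, with the 4 dpi control libraries spread from 3.04 to 6.88.

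Around these 10 genes, 73 further genes of the pathway were listed by role, of which 68 were in the table and 64 passed the filter. Injury with the control inhibitor gave no calls among the 64 in limma, with 3 at an unadjusted p under 0.05, beside 1410 of all 13824 genes. The inhibitor after injury gave 3 of 64, where 3.82% of all genes were called: PSENEN, a gamma-secretase subunit, rose by 0.87 (adjusted p = 0.0466), while DTX3L, a Deltex-family ubiquitin ligase, fell by 1.67 (0.0458) and ID3, an inhibitor of basic helix-loop-helix factors, fell by 1.26 (0.0491). After scaling no gene of the table was called in this comparison, and PSENEN was at 1.503 (0.0938), DTX3L at -1.04 (0.112) and ID3 at -0.62 (0.293). Injury within the inhibitor cords gave no calls, with 10 at an unadjusted p under 0.05, beside 2871 of all 13824 genes. The interaction gave none, with 8 at an unadjusted p under 0.05, beside 1130 of all genes.

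With the inhibitor in uninjured cords, 55 of the 64 genes fell and 1 rose, where 51.1% of all genes fell and 7.39% rose, and their median was -1.59 against -1.10 for all genes. After scaling 19 fell and 3 rose, where 17.8% of all genes fell and 19.4% rose, and the median was -0.69 against -0.17. The counts for the single role lists in this comparison stand against the same shares. The gene that rose was PSENEN, at 27.7, 28.6 and 26.2 TPM in uninjured cords and 59.8, 50.7 and 57.9 TPM in uninjured inhibitor cords (log2 difference 1.03, adjusted p = 0.00253, and 1.97 after scaling, adjusted p = 0.00246). It was at 72.8, 63.5 and 65.4 TPM in 4 dpi inhibitor cords against 30.0, 41.2 and 40.2 TPM in 4 dpi control cords. All 6 inhibitor libraries were above all 6 others for this gene, a pattern whose share among all genes was not counted. Higher without overlap with the inhibitor were 8.93% of all genes in uninjured cords and 6.97% at 4 dpi. After scaling CIR1, an RBPJ-binding corepressor, and HDAC2, a histone deacetylase, were called higher as well (0.85 and 1.28, adjusted p = 0.0329 and 0.00804), and on TPM as deposited they were at -0.10 and 0.34 and not called.

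The receptor-cleavage list, with 8 tested genes, had a median of -0.95 and 7 that fell. Among these ADAM10, the protease of the first activating cut, fell by 1.02 (adjusted p = 0.00461), and FURIN, which processes the receptor on its way to the surface, fell by 3.78 (adjusted p = 0.00267). After scaling FURIN was the gene of this list called lower (-2.94, adjusted p = 0.00616) and ADAM10 was at -0.07. FURIN was at 16.5, 7.37 and 5.74 TPM in uninjured cords. It was at 0.464, 1.98 and 0.141 TPM in uninjured inhibitor cords, where the 0.1 TPM added before the logarithm matters. Of the 5 enzymes that glycosylate the receptor, all fell before scaling, including the Fringe gene LFNG by 2.36 (adjusted p = 0.0128), and POFUT1 alone was called after it (-0.71, adjusted p = 0.0459).

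Among 14 ubiquitin and endocytosis genes 13 fell, beside 51.1% of all genes. MIB2, NEURL1B, DTX2, DTX4 and DTX3L were still called lower after scaling, with DTX4 at -4.22 (adjusted p = 0.0175). DTX4 was at 26.2, 2.56 and 7.07 TPM in uninjured cords and 0, 2.44 and 0 TPM in uninjured inhibitor cords. The size of its difference therefore depends on the 0.1 TPM added before the logarithm. NEURL1B was at 0, 0.468 and 0 TPM in uninjured inhibitor cords. Of 8 coactivators 7 fell, all except MAML2, and MAML3, EP300, KAT2A and KAT2B remained lower after scaling, with EP300, a histone acetyltransferase, at -1.50 (adjusted p = 0.0134). Among 14 corepressors 12 fell, and NCOR1, HDAC1, TLE3, TLE4 and SIN3A were called lower after scaling. Of 11 genes listed as further targets, among them HES6 and the ID genes, 9 fell, and HES6, NRARP and ID3 were called lower after scaling. The other listed targets were not called after it. Among these was HES5, called lower on TPM as deposited only. It was at 36.1, 11.1 and 12.4 TPM in uninjured cords and 7.97, 9.49 and 6.22 TPM in uninjured inhibitor cords. Whether the listed genes depend on Notch in axolotl cord was not tested. NRARP, a target that feeds back on Notch signaling, was at 99.4, 47.5 and 33.0 TPM in uninjured cords and 9.53, 13.7 and 4.41 TPM in uninjured inhibitor cords, which do not overlap. It fell by 2.68 (adjusted p = 0.00214), and by 1.74 after scaling (0.00610). The scaled values of HES1 and HEY1 in the same comparison were -0.19 and -0.11, with 95% intervals of -0.75 to 0.36 and -0.72 to 0.51.

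**Figure D4:**
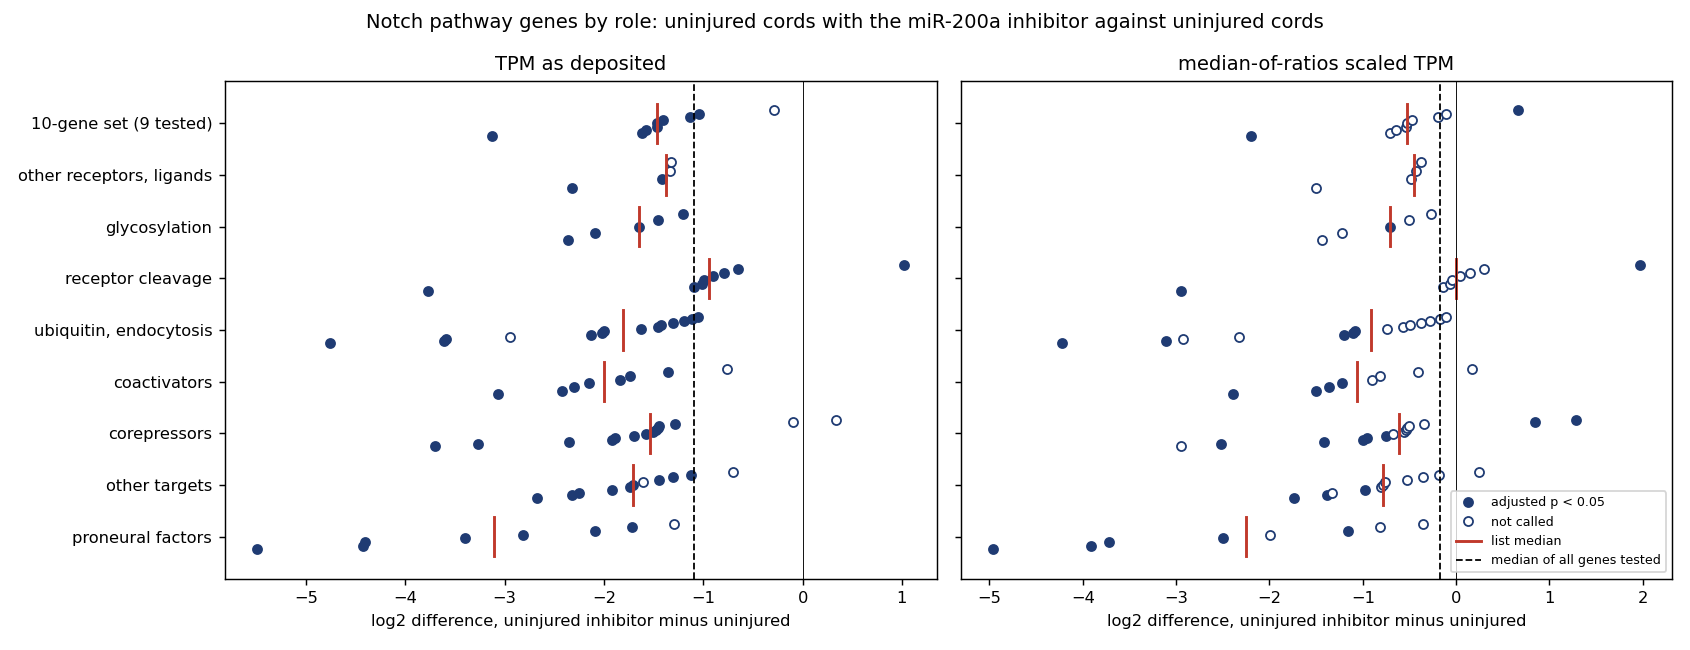
log2 differences between uninjured inhibitor and uninjured cords for the tested genes of each role list (1 point per gene, filled at an adjusted p under 0.05), on TPM as deposited and after median-of-ratios scaling, with the list median (red bar) and the median of all genes (dashed line). The dashed line moves from -1.10 to -0.17 with scaling, and the proneural factors have the most negative list median in both panels. The size of that median depends in part on the 0.1 TPM added before the logarithm.

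With injury and the inhibitor against uninjured cords, 33 of the 64 genes fell and PSENEN rose by 1.29 (adjusted p = 0.00173), beside 31.2% of all genes that fell and 9.39% that rose, with a median of -1.28 against -0.81 for all genes. After scaling 16 fell, beside 12.03% of all genes, and PSENEN and HDAC2 rose, beside 16.6%. Those that fell on both scales included 3 other ligands: DLL4 by 1.80 (adjusted p = 0.00472), the non-canonical ligand DLK1 by 2.16 (0.0109), and DNER, a ligand of neurons, by 2.34 (0.00746). DNER, the most abundant ligand of the lists, was at 484, 79.2 and 113 TPM in uninjured cords, 180, 63.3 and 88.8 TPM in 4 dpi control cords, 60.6, 61.6 and 72.9 TPM in uninjured inhibitor cords, and 31.2, 30.7 and 34.5 TPM in 4 dpi inhibitor cords. The 4 dpi inhibitor libraries were below all 9 others. Among the genes listed as further targets HES6, HEY2, BHLHE41, ID3 and ID4 were called lower on both scales, and HES5 on neither. HEY2, a paralog of HEY1, was at 29.2, 8.99 and 10.0 TPM in uninjured cords, 10.4, 3.91 and 6.25 TPM in 4 dpi control cords, 4.03, 3.77 and 4.41 TPM in uninjured inhibitor cords, and 2.66, 2.56 and 2.54 TPM in 4 dpi inhibitor cords, so that, as for HEY1, the 4 dpi inhibitor libraries were the lowest of the 12. Its difference was -2.37 (adjusted p = 0.00369) and -1.71 after scaling (0.00422). The share of all genes that, as DNER and HEY2, were lowest in the 4 dpi inhibitor libraries was not counted. Taken by pairs of groups, 49.00% of all genes were lower there without overlap than in 4 dpi control cords. The shares were 41.8% against uninjured cords and 9.51% against uninjured inhibitor cords.

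In human cancer cells JAG1, MAML2 and MAML3 are known targets of the miR-200 family. Inhibition of a family member would raise its own direct targets. The study reports that its inhibitor lowered miR-200a and left miR-200b unchanged. Whether these 3 genes answer to miR-200a or to other family members was not examined, so a rise is not a firm prediction for them. None of the 3 was called higher in any comparison of inhibitor cords with control or uninjured cords. Of all 13824 genes, 87 were called higher with the inhibitor at 4 dpi, and 0 after scaling. Against uninjured cords, 7.39% and 9.39% were called higher in uninjured inhibitor and 4 dpi inhibitor cords, or 19.4% and 16.6% after scaling. A count of 0 among 3 genes therefore cannot decide whether these genes are targets here. At 4 dpi, inhibitor against control, their differences were -0.34, -0.40 and -0.98 (adjusted p = 0.545, 0.449 and 0.166 in limma) and 0.29, 0.23 and -0.35 after scaling. In uninjured cords JAG1 and MAML3 fell, MAML3 by 2.15 (adjusted p = 0.00416) and by 1.23 after scaling (0.0152). MAML2 was at -0.76 (0.108) there and at 0.17 after scaling. Axolotl transcripts were not searched for sites of miR-200a or its family here.

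Genes with the most similar profile over the 12 libraries were found by the root mean square difference of centred log2(TPM + 0.1) values, which was 0.0928 to 0.211 for the 3 nearest genes of each of the 8 genes examined. They were SOCS7, SH3RF1 and DGCR2 for NOTCH1, SFXN1, VANGL2 and ZC3H7B for NOTCH2, RCOR2, SPIRE1 and DUSP8 for DLL1, and DGKD, NFIA and DIP2B for JAG1. For JAG2 they were CS, EIF3L and RNF10, for HES1 EXT1, CCDC127 and MRPL34, for HEY1 SGIP1, ANKH and BRAF, and for MIB1 DEF8, AGPS and SETD6. The nearest gene of the Notch set was NOTCH1 for DLL1, JAG1, HES1 and MIB1, at 0.260 to 0.293, while NOTCH2 had no near relative in the set (JAG1 at 0.933). The median distance over all genes was 0.663 to 0.784 for DLL1, JAG1, HES1 and MIB1. How many genes lay as near to them as NOTCH1 was not counted. All these distances were taken before scaling, so they include the shift of the typical gene between libraries.

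Markers of other cells moved with these comparisons, and for most lists the count called depended on the scale. The summed TPM of 10 macrophage markers was 63.1 to 211 in uninjured cords, 525 to 689 in 4 dpi control cords, 303 to 391 in uninjured inhibitor cords and 656 to 840 in 4 dpi inhibitor cords. Against uninjured cords 7, 5 and 10 of the 10 were called higher in these groups, where 0.861%, 7.39% and 9.39% of all genes were. After scaling the counts were 8, 10 and 10, where 0.911%, 19.4% and 16.6% of all genes were called higher.

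The sum of 10 ependymoglia markers was 1119 to 4823, 1202 to 2444, 1180 to 1683 and 913 to 1039 TPM in the 4 groups. In the comparisons of uninjured inhibitor and of 4 dpi inhibitor with uninjured cords, 6 and 6 of them fell, and NES rose in the second. After scaling SOX2 fell while VIM and NES rose in the first, and SOX2, GFAP and SLC1A3 fell while VIM and NES rose in the second. The sums of 10 neuron markers were 2361 to 12797, 2428 to 5090, 2199 to 3197 and 1181 to 1416 TPM, with 7 and 8 lower, or 4 and 5 after scaling. The sums of 8 oligodendrocyte markers were 846 to 10839, 1776 to 3577, 711 to 2385 and 984 to 1164 TPM, with 3 and 4 lower, or 1 and 2 after scaling. The share of all genes called lower in these comparisons was 51.1% and 31.2%, or 17.8% and 12.03% after scaling. No marker of these cord cell types was at 0 throughout a group.

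Genes listed as markers of tissue around the cord were also present, and whether their RNA came from that tissue or from cord cells was not tested. Skeletal muscle markers summed to 7845 to 34112, 7739 to 13729, 2701 to 6709 and 4665 to 5112 TPM, and 7 and 6 of 7 fell in the same comparisons, but 1 and 2 after scaling. Those were MYH3 in the first comparison, and MYH3 and PAX7 in the second. Skin markers summed to 1440 to 1567, 1161 to 1868, 503 to 603 and 616 to 1112 TPM, and 6 and 2 of 8 fell, but 1 and 1 after scaling. The 2 in the second comparison were the keratins KRT8 and KRT18, and the gene called after scaling was KRT8 in both. Of 4 tested erythroid genes HBA2 and HBG1 rose in both comparisons on both scales, and ALAS2 and SLC4A1 fell in the first on TPM as deposited. The erythroid sums were 242 to 301, 575 to 945, 418 to 754 and 420 to 1499 TPM, and HBB was at 0 throughout the uninjured and both inhibitor groups. The 9 endothelial markers summed to 31.0 to 108, 50.4 to 133, 24.1 to 30.2 and 38.5 to 44.9 TPM, and 3 and 0 fell. After scaling PECAM1 rose and ESAM fell in the first comparison, and PECAM1 and EGFL7 rose in the second. The 8 mural and fibroblast markers summed to 1889 to 2638, 2431 to 4651, 1541 to 2814 and 3326 to 3418 TPM. PDGFRB and ACTA2 fell in both comparisons, and COL3A1 and LUM rose in the second. After scaling RGS5, COL3A1 and LUM rose in both, and PDGFRB and ACTA2 fell in the first. The part of cell composition, of ribosomal protein share and of the libraries numbered 1 in the Notch gene differences was not tested.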

How the data were processed

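RNA sequencing of 12 axolotl cord libraries was analysed from the TPM table. The authors built contigs from all reads together (Trinity, with duplicates collapsed by cd-hit-est) and named each one after the human protein that BLASTX matched best. Bowtie 0.12.1 and RSEM 1.1.6 served for alignment and quantification. The TPM values that the authors deposited are fragment counts summed per symbol, divided by effective length and scaled to 1000000. The authors tested counts with DESeq2 1.16.1. Those counts are not used here, so depth is unknown and counting intervals cannot be given. A spreadsheet had turned 25 symbols into dates, which were turned back.

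Here log2(TPM + 0.1) was fitted with limma 3.58.1 in R 4.3.3, with 1 term per group over 12 libraries and a variance trend. Two-sided p-values were adjusted by Benjamini-Hochberg over the 13824 genes averaging 1 TPM or more, and a difference was called below an adjusted p of 0.05. A difference of low values is understated on this scale, and where a library is listed at 0 its size depends on the 0.1 added. Median-of-ratios factors came from 13002 genes above 0 in every library. Alternatives were a pseudocount of 1, no filter, a mean of at least 5 TPM, quantile normalization, no trend, library weights, a replicate block, only the compared groups, and leaving out libraries. Leaving out each library after scaling was added after seeing the data.

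The 10 genes and all lists were chosen with earlier results of these data known. Named are the 10 genes, listed pathway genes that were called or most abundant in their list, not all of which are given, and the 3 most similar profiles of each of 8 genes. Proneural genes listed with them are described separately.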

Additional observations from a re-analysis of the deposited data

How the results depend on the processing

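The number of the 9 genes called was, in the order injury, inhibitor after injury, inhibitor without injury, injury and inhibitor, injury within inhibitor cords and interaction, 0, 0, 8, 6, 0 and 0. It was the same with a pseudocount of 1, no filter or no variance trend. Library weights, whose estimate stopped before convergence, gave 1, 6, 9, 7, 3 and 2. In the same order they called 2691, 1382, 1583, 1930, 5173 and 3529 of all 13824 genes higher. They called 2293, 8630, 8769, 6797, 1777 and 1519 lower. For inhibitor without injury and for injury and inhibitor, median-of-ratios scaling gave 2 and 1, quantile normalization 0 and 1, only the compared groups 5 and 4 (with 1 for inhibitor after injury), and leaving out both libraries numbered 1 with scaling 1 and 1. Of all genes, quantile normalization called 2190 and 2282 higher and 1441 and 1654 lower. Only the compared groups gave 714 and 988 higher and 4625 and 3192 lower (236 and 2222 for inhibitor after injury). Leaving out both libraries numbered 1 with scaling gave 2567 and 2284 higher and 1902 and 1395 lower. What a replicate number stands for is not given. Of 11 same-numbered pairs, 3 had deviations correlated over 0.1 (r from -0.307 to 0.507, the highest between the libraries numbered 1). Number 1 occurs only without the inhibitor and number 7 only with it, so a replicate block is partly confounded with the inhibitor. The unnumbered uninjured library had a block level of its own. With a replicate block the counts were 0, 0, 7, 2, 2 and 0, and with a replicate block and scaling 0 and 1 for inhibitor without injury and for injury and inhibitor. Of all genes the block called 372, 83, 655, 921, 1791 and 0 higher and 369, 575, 5706, 3255, 438 and 1 lower. With scaling it called 1625 and 1762 higher and 443 and 896 lower for inhibitor without injury and for injury and inhibitor. Leaving out 1 library gave 0 to 2 calls for inhibitor after injury, 6 to 9 for inhibitor without injury and 1 to 6 for injury and inhibitor. In those fits 5009 to 7837 of all genes were called lower for inhibitor without injury, and 2065 to 5161 for injury and inhibitor.

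Differences that changed sign had these values, and HEY1 in inhibitor without injury was the one among them that had been called. In inhibitor after injury, with median-of-ratios scaling RBPJ was at 0.59, HES1 at 0.14 and JAG1 at 0.29. Quantile normalization gave RBPJ 0.47, NOTCH1 0.052, HES1 0.21 and JAG1 0.43. The replicate block gave RBPJ 0.013 and NOTCH2 0.19, and with scaling RBPJ 0.43, NOTCH1 0.14, HES1 0.14, DLL1 0.083, JAG1 0.40 and NOTCH2 0.61. Without both libraries numbered 1 and with scaling RBPJ was at 0.38, NOTCH1 at 0.031, HES1 at 0.17, JAG1 at 0.34 and NOTCH2 at 0.33. In inhibitor without injury RBPJ was at 0.66, 0.51, 0.32 and 0.67 with scaling, quantile normalization, block and scaling, and the last of those settings. HEY1 was at 0.13 in that last setting. In injury and inhibitor JAG1 was at 0.11 with quantile normalization and 0.14 without both libraries numbered 1 and with scaling. In injury within inhibitor cords, with the same 4 settings, HES1 was at -0.17, -0.15, -0.17 and -0.17, and MIB1 at -0.12, -0.21, -0.12 and -0.11, and quantile normalization gave JAG2 -0.045. For injury, library weights gave NOTCH1 0.049, HES1 0.026 and JAG2 0.0045, and HEY1 was at 0.043 without both libraries numbered 1 and 0.079 with scaling too. Leaving out 1 library gave -0.76 to 0.10 for HEY1 and -1.22 to 0.26 for NOTCH2 in injury, and -0.32 to 0.17 for DLL1 in injury within inhibitor cords. The cause of these changes was not tested. Each group held 3 pools, and NOTCH3 was too low to test.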

Other observations

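Proneural factors, the basic helix-loop-helix activators and partners that HES and HEY proteins repress, were listed beside the pathway and had more negative median differences than the other lists in both comparisons of inhibitor with uninjured cords. Of 8 tested, 7 fell with the inhibitor in uninjured cords (median -3.11 against -1.10 for all genes) and 6 fell with injury and the inhibitor (median -2.71 against -0.81), where 51.1% and 31.2% of all genes fell. After scaling 5 and 6 were called lower (medians -2.25 and -2.10), where 17.8% and 12.03% of all genes were. In uninjured inhibitor cords ATOH1 was at 0, 0.871 and 0 TPM and NEUROG3 at 0.618, 0.330 and 0 TPM. NEUROD2 was at 0.324, 2.24 and 0.147 TPM there. The size of the list median for those cords therefore depends in part on the 0.1 TPM added before the logarithm. Injury with the control inhibitor gave no calls in limma, with 4 at an unadjusted p under 0.05, beside 1410 of all 13824 genes. The list median was -1.52, against -0.08 for all genes.

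INSM1, a zinc-finger factor of newborn neurons, was at 34.6, 16.4 and 11.4 TPM in uninjured cords, 12.7, 3.99 and 6.996 TPM in 4 dpi control cords, 4.58, 4.41 and 3.92 TPM in uninjured inhibitor cords and 3.32, 2.78 and 3.27 TPM in 4 dpi inhibitor cords. Its 4 dpi inhibitor libraries were below all others, a pattern whose share among all genes was not counted. It fell by 2.09 with the inhibitor in uninjured cords (adjusted p = 0.00372 in limma, and 0.0189 after scaling). NEUROD4 was at 22.9, 7.36 and 9.38 TPM in uninjured cords, 6.77, 1.28 and 2.95 TPM in 4 dpi control cords, and 0.516 to 1.59 TPM in the 6 inhibitor libraries. It fell by 3.40 in uninjured inhibitor cords (adjusted p = 0.00224) and by 3.93 in 4 dpi inhibitor cords against uninjured cords (0.00192). NEUROG1, listed at 0 in 4 of the 6 inhibitor libraries, was at 29.3, 6.21 and 7.44 TPM in uninjured cords. The neuron marker sums given above were also lowest in the 4 dpi inhibitor cords, and their part in these values was not tested.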
